A study of Mus musculus with 12 samples.

Results

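Transcripts of 4 stathmins and 6 further proteins of the neuronal cytoskeleton and growth cone were followed during neuronal differentiation of P19 cells. The members were the genes Stmn1, Stmn2, Stmn3, Stmn4, Map1b, Map2, Mapt, Dcx, Dpysl3 and Gap43, and a read was taken when its alignment carried one of these gene names, the class mRNA and the quality tag PASS. They were 10 of the 14664 genes with such a read, and they held 10637 reads on 27 of 34886 transcripts.

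Microtubules are built from tubulin dimers, and a growing neurite depends on proteins that shift the balance between assembly and disassembly. Stathmins bind free tubulin dimers and favour disassembly, whereas the classical microtubule-associated proteins MAP1B, MAP2 and tau, together with doublecortin, bind along the polymer and stabilise it. CRMP4, the product of Dpysl3, binds tubulin and actin in growth cones, and GAP43 is a membrane protein of the growth cone rather than a microtubule protein.

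P19 is a mouse embryonal carcinoma line, so that all libraries come from 1 wild-type tumour-derived line. Undifferentiated cells (D0) were kept in DMEM with fetal bovine serum, and the D2, D4 and D6 cells had spent 2, 4 or 6 days in NDiff 227 medium with 500 nM retinoic acid, so that the medium and the retinoic acid changed together. Poly(A) RNA was sequenced natively on nanopores in 3 replicates per day, which the study calls biological, and a read stands for 1 molecule, read from its 3′ end and tail. No day shared any of the 13 sequencing runs with another day, so that day and run cannot be told apart, and the names of the D0 runs also carry the mark D2.

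Libraries held from 130162 reads (D2 replicate 1) to 642548 reads (D0 replicate 2) of PASS quality and class mRNA. Levels are given as CPM, the reads of a gene per 1000000 PASS mRNA reads on the genes tested in that library, after scaling of the library totals by trimmed-mean factors. Summed levels of neuron markers were 183 to 217 CPM in the D0 libraries, 90.8 to 163 at D2, 1126 to 1291 at D4 and 1760 to 1955 at D6. Of the 11 neuron markers with at least 30 reads in all, 9 reached that number only through D4 and D6, which favours a higher level there. The other 2, Tubb3 and Ina, were also higher at D6 than at D0. Rbfox3, the marker of postmitotic neurons, had only 2 reads at D4 and 3 at D6. Neural progenitor markers summed to 642 to 679 CPM at D0 and 2467 to 2942 at D6, with 6 of 7 higher and Sox2 lower. Pluripotency markers summed to 1595 to 1851 CPM at D0 and to at most 11.4 on every later day. Cycling markers summed to 1733 to 1878 CPM at D0, 2177 to 2315 at D2, 1717 to 1986 at D4 and 1207 to 1366 at D6, with 5 of 7 lower at D6. Astrocyte markers stayed at or below 72.4 CPM in every library (over the days in order, Slc1a3 had 90, 2, 60 and 22 reads, Slc1a2 had 0, 0, 5 and 19, Aldh1l1 and Gfap had 1 in all each, and Aqp4 and S100b none), and mesoderm, endoderm and fibroblast markers at or below 49.1. The part of these changes in cell makeup in the values below was not tested. In such bulk libraries, fewer cells of a type and less RNA per cell cannot be told apart.

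Together the members took 0.165% to 0.176% of reads at D0, 0.0832% to 0.106% at D2, 0.224% to 0.237% at D4 and 0.363% to 0.400% at D6, and the days did not overlap. Stmn1 alone held 5541 of the 10637 member reads, so that this joint share follows Stmn1 more than any other member. Days were compared with limma-voom on all 9355 genes with at least 30 reads over the 12 libraries, and a gene was called at a Benjamini-Hochberg adjusted p of at most 0.05 over these genes. All 10 members passed this minimum, but Stmn4, Mapt, Dcx and Map2 had 0, 4, 0 and 20 reads at D0 and D2 together and passed only through D4 and D6, where they were high. P-values measure the spread between these libraries.

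**Figure D1:**
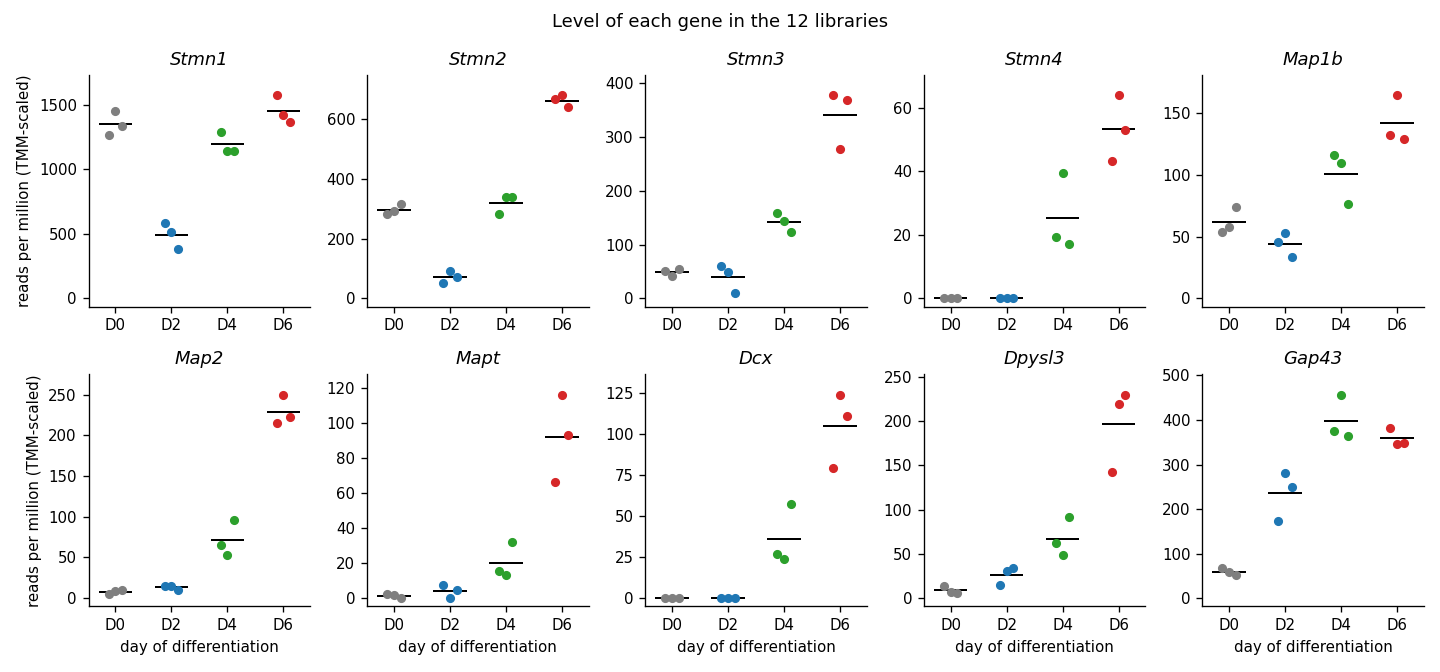
Level of each of the 10 genes in every library, in CPM (vertical axis, a separate scale per gene) against day of differentiation (horizontal axis); points are the 3 libraries of a day and bars their mean. Stmn1 and Stmn2 dip at D2, Gap43 is already raised at D2, and Stmn4 and Dcx have no read before D4.

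At D2, 2 of the 10 members were called higher than at D0 and 2 lower, where 4.72% of all genes tested were called higher and 6.06% lower. The 4 members that passed only through D4 and D6 were let in by their late reads, which favours a rise. Counts are therefore given for the other 6. At D4, 4 of these 6 were higher than at D0 and 0 lower, against 12.8% and 12.6% of all genes. At D6, 5 of 6 were higher and 0 lower, against 19.1% and 18.6%. Between neighbouring days, 5 of 6 were higher at D4 than at D2 and 0 lower (2.15% and 1.11% of all genes), and 3 of 6 were higher at D6 than at D4 and 0 lower (4.14% and 4.23%). With all 10 members, those 4 included, the number called higher was 8 at D4, 9 at D6, 8 at D4 against D2 and 7 at D6 against D4, which is a description. The median log2 change of the 6 at D6 against D0 was 1.90, where the median of all genes was 0.01. All 6 also reached 30 reads by D4 and D6 alone, and among the 6460 genes that reached it both before D4 and from D4 on 16.4% were higher at D6 and 20.6% lower. The Map1b call at D4 against D2 (1.08, adjusted p = 0.0399) was lost in 5 of 13 alternatives with all libraries and in 5 of 6 with a library left out. When libraries were scaled by their totals alone, the median of all genes at D6 moved to 0.18 and 24.4% of genes were called higher and 14.1% lower, and all 10 members, Stmn1 included, were called higher.

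Among the stathmins, Stmn1, a stathmin of proliferating cells as well as neurons, was the one whose level at D6 was not called different from D0, a call that turned with library totals as the only scaling (log2 0.26, adjusted p = 0.00352). Its level was 1266.5, 1450.1 and 1339.8 CPM at D0, 582.6, 515.2 and 385.4 at D2, 1291.8, 1145.6 and 1144.2 at D4, and 1575.4, 1422.4 and 1363.8 at D6. All 3 D2 libraries lay below every library of the other days, while D0 and D6 overlapped. The log2 change at D2 was -1.49 ± 0.12 (SE, 3 libraries per day, adjusted p = 1.49e-14), which is 0.356 times the D0 level, and D4 was again higher than D2 by 1.29 ± 0.13 (adjusted p = 3.07e-11). Against D0, the log2 change was -0.20 ± 0.10 at D4 (adjusted p = 0.126, 95% interval 0.765 to 0.996 times the D0 level), called with a mapping quality of at least 10 (-0.32, adjusted p = 0.000959), and 0.09 ± 0.09 at D6 (adjusted p = 0.460), and the 95% interval of the D6 change ran from 0.938 to 1.21 times the D0 level. D6 was not called different from D4 (0.29 ± 0.10, adjusted p = 0.0527), but 9 of 13 alternatives with all libraries called it higher. The sum of the cycling markers was highest on the day when Stmn1 was lowest, with 2 of 7 called higher at D2 than at D0 and 0 lower. Pcna had the most reads in that sum (1003 at D0 and 560 at D2), and a link to Stmn1 was not tested.

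Stmn2 (SCG10), a membrane-anchored stathmin of growth cones, was read in undifferentiated cells too. It stood at 284, 294 and 315 CPM at D0, at 53.0, 90.9 and 72.3 at D2, at 282, 338 and 341 at D4, and at 667, 680.2 and 639 at D6. The D2 libraries were below and the D6 libraries above all others, and D0 and D4 overlapped. The log2 change against D0 was -1.95 ± 0.23 at D2 (adjusted p = 3.55e-09), 0.12 ± 0.13 at D4 (adjusted p = 0.527) and 1.15 ± 0.12 at D6 (adjusted p = 5.08e-12). The neuron markers as a list summed lower in every D2 library than in every D0 library. Tubb3 had the most reads in that sum, 202 at D0 and 38 at D2. Of the 11 markers tested, 1 was called higher at D2 and 1 lower, and their median log2 change was 0.43, so that the list did not fall as a whole.

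Stmn3 (SCLIP), another membrane-anchored stathmin, had 51.4, 42.5 and 54.8 CPM at D0, 60.5, 49.3 and 9.63 at D2, 159, 145 and 124 at D4, and 378, 277 and 369 at D6. Its D2 libraries overlapped those of D0, and the low value of D2 replicate 3 rested on 2 reads. The change at D2 was not called (log2 -0.60 ± 0.40, adjusted p = 0.382), and without that library it was 0.17. Stmn3 rose by 1.50 ± 0.23 at D4 (adjusted p = 9.95e-07) and by 2.75 ± 0.22 at D6 (adjusted p = 3.95e-16) against D0 on the log2 scale, and D6 also exceeded D4 (1.25 ± 0.17, adjusted p = 2.86e-07).

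Stmn4 (RB3) had no read in any D0 or D2 library. A count of 0 allows up to 3 reads over the libraries of a day, which is 1.94 CPM at D0 and 4.97 CPM at D2 and covers counting error only. It then stood at 19.3, 39.5 and 17.0 CPM at D4 and 43.1, 63.9 and 53.0 at D6. The pooled level of the 3 libraries of a day, with no error of its own counted, was at least 13.5-fold higher at D4 and at least 28.5-fold higher at D6 than the limit at D0. D6 was called higher than D4 (log2 1.12 ± 0.33, adjusted p = 0.0200), without overlap between the libraries, but the call was lost when any of 3 single libraries was left out and in 5 of 13 alternatives with all libraries, the replicate number in the model among them.

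**Figure D2:**
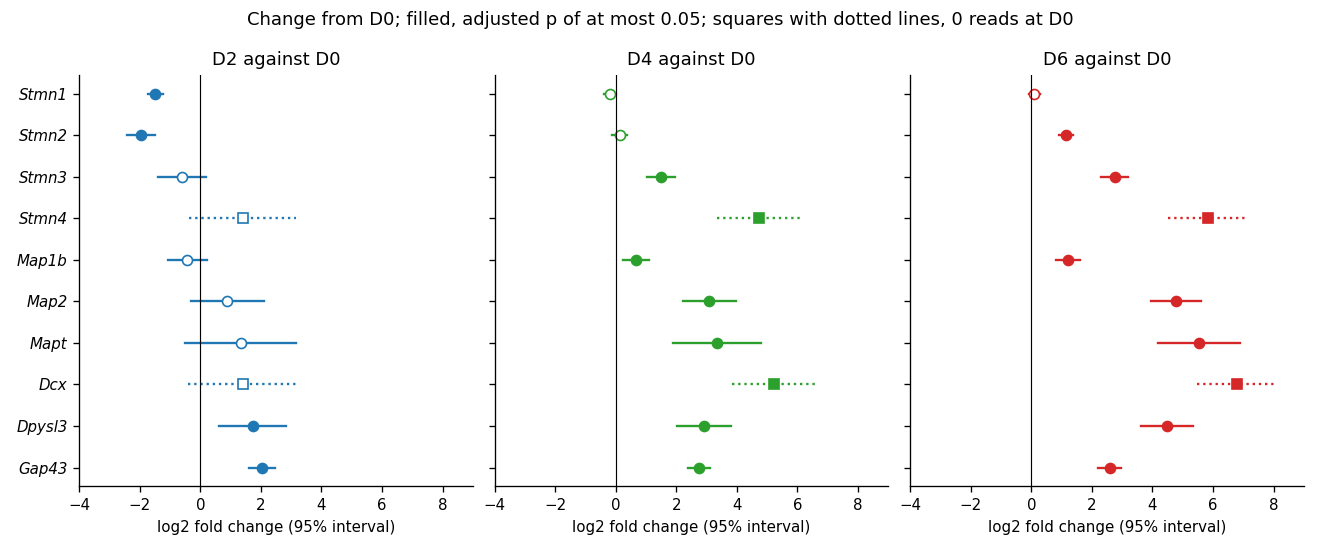
Log2 change of each gene at D2, D4 and D6 against D0 (horizontal axis) with its 95% interval; filled points were called at an adjusted p of at most 0.05. Squares with dotted bars mark genes without a read at D0, whose fitted value depends on the pseudocount and is no measured fold, and the changes at D6 range from 0.09 for Stmn1 to 4.79 for Map2 among genes with more than 2 reads at D0. Map2 and Mapt, like the squares, passed the read minimum only through D4 and D6.

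The proteins that bind along microtubules differed in how early their transcripts were read. Map1b, the earliest of the classical neuronal MAPs in development, had 53.6, 57.7 and 74.3 CPM at D0, 45.4, 53.0 and 33.7 at D2, 116, 109.7 and 76.7 at D4, and 133, 165 and 129 at D6. Every D2 library lay below every D0 library, by less than 1 CPM at the closest, but the change was not called (log2 -0.43 ± 0.32, adjusted p = 0.459), and all D4 and D6 libraries lay above them. The log2 change against D0 was 0.65 ± 0.22 at D4 (adjusted p = 0.0195), a call lost when any of 4 single libraries was left out, with a mapping quality of at least 10 (0.54, adjusted p = 0.0729) and with every library thinned to the smallest (0.19, adjusted p = 0.814). At D6 it was 1.21 ± 0.20 (adjusted p = 2.00e-06), and thinning left 0.79 and no call (adjusted p = 0.0965). D6 was not called different from D4 (0.56 ± 0.19, adjusted p = 0.0580), although 5 of 13 alternatives with all libraries called it higher.

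Map2, the MAP of dendrites, had 4.47, 8.49 and 9.78 CPM at D0, 15.1, 15.2 and 9.63 at D2, 65.8, 52.7 and 95.9 at D4, and 216, 250.0 and 222 at D6. D4 lay above D2 and D6 above D4 without overlap. Against D0 the log2 change was 0.89 ± 0.60 at D2 (adjusted p = 0.397), 3.08 ± 0.43 at D4 and 4.79 ± 0.41 at D6. The last 2 values are a description without a test, since Map2 passed the read minimum only through these days. Of its reads 98.7% had a mapping quality under 10, so that the split of reads among Map2 transcripts is uncertain, and Map2 could not be tested when a mapping quality of at least 10 was required.

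Mapt, which encodes tau, the MAP of axons, had 2 reads over the D0 libraries (2.23, 1.70 and 0 CPM) and 2 over the D2 libraries (7.57, 0 and 4.82 CPM). Its level was 15.5, 13.2 and 32.0 CPM at D4 and 66.3, 116 and 93.4 at D6, and these days did not overlap. The ratio of the pooled levels was 16.3 for D4 to D0 (95% counting interval 4.08 to 142) and 74.6 for D6 to D0 (20.2 to 623). The fitted log2 change was 2.19 ± 0.35 at D6 against D4, or 1.83 with every library thinned to the smallest. No test is given for Mapt, because it reached the read minimum only through its 117 reads at D6.

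Dcx, which encodes doublecortin of migrating and immature neurons, had no read at D0 or D2. At D4 it stood at 27.1, 24.1 and 57.5 CPM and at D6 at 79.6, 124 and 111, again without overlap. The pooled level of a day was at least 19.6-fold higher at D4 and at least 56.1-fold higher at D6 than the limit at D0. D6 exceeded D4 by 1.57 ± 0.28 on the log2 scale (adjusted p = 4.53e-05), a call lost without the voom weights (limma-trend, adjusted p = 0.129) and with every library thinned to the smallest (adjusted p = 0.0871). Stmn4 and Dcx were thus the members listed at 0 on both early days.

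Of the growth-cone members, Dpysl3 stood at 13.4, 6.79 and 5.87 CPM at D0, 15.1, 30.3 and 33.7 at D2, 61.9, 48.3 and 91.6 at D4, and 143, 219 and 230 at D6. The days did not overlap, although D0 and D2 rested on 13 and 17 reads. Its log2 change against D0 was 1.74 ± 0.55 at D2 (adjusted p = 0.0311), 2.91 ± 0.45 at D4 (adjusted p = 6.45e-07) and 4.49 ± 0.42 at D6 (adjusted p = 4.09e-13). The D2 call was lost when any of 4 single libraries was left out, with all 6 values between 1.56 and 2.07. With every library thinned to the smallest, the changes at D2 (0.45, adjusted p = 0.828) and D4 (1.69, adjusted p = 0.101) were not called.

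Gap43 was already raised at D2. It stood at 67.0, 57.7 and 52.8 CPM at D0, 174, 280.3 and 251 at D2, 375, 456 and 364 at D4, and 381, 347 and 349 at D6. Every D2 library lay above every D0 library and below every D4 library, while D4 and D6 overlapped. The log2 change against D0 was 2.03 ± 0.21 at D2 (adjusted p = 4.49e-11), 2.75 ± 0.19 at D4 (adjusted p = 1.37e-18) and 2.59 ± 0.19 at D6 (adjusted p = 1.52e-17). D6 was not called different from D4 (-0.16 ± 0.13, adjusted p = 0.518), with a 95% interval of 0.747 to 1.07 times the D4 level. These comparisons with D0 share the D0 libraries, and at D2 Gap43 and Dpysl3 were the members called higher where Stmn1 and Stmn2 were called lower.

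The transcript with most reads held at least 97.8% of a member's reads in 8 members, 68.4% in Stmn4 and 32.2% in Map2. These transcripts lay, in GRCm38 coordinates, at chr4:134468320-134473843 on the plus strand for Stmn1, chr3:8509360-8561606 (plus) for Stmn2, chr2:181306459-181314500 (minus) for Stmn3 and chr14:66344304-66361680 (plus) for Stmn4. Those of the MAPs lay at chr13:99421446-99516540 (minus) for Map1b, chr1:66364655-66442583 (plus) for Map2, chr11:104231390-104332090 (plus) for Mapt and chrX:143855842-143933311 (minus) for Dcx. Dpysl3 lay at chr18:43320984-43438286 (minus) and Gap43 at chr16:42248442-42340651 (minus). In the fit per transcript 12 member transcripts were tested at D6 against D0, of which 6 (1 each of Stmn4, Mapt and Dcx and 3 of Map2) had 30 reads only through D4 and D6. Of the other 6, 5 were higher and 0 lower, with that of Stmn1 not called, where 15% of the 12400 transcripts tested were higher and 14.5% lower. The share of reads on the main transcript was compared between D0 and D6 in the 5 members with at least 10 reads in each of these libraries. It was 99.3% on both days for Stmn2 (exact permutation p = 0.9) and went from 96.7% to 97.1% for Gap43 (exact permutation p = 0.7). Between 3 and 3 libraries this test cannot give a p below 0.10, so that it could not have called a difference.

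Because reads start at the 3′ end, transcripts of different length were covered to a different extent. The whole coding sequence was covered in 79.6% of reads on the main Stmn1 transcript, 67.8% for Stmn2, 66.6% for Stmn3, 65.7% for Stmn4 and 64.9% for Gap43. For the long transcripts this share was 3.45% for Mapt and 1.70% for Dcx, and no read covered it for Map1b, Map2 and Dpysl3, where the median aligned length was 1077, 1523 and 1304 nt. Alternative exons far upstream of the 3′ end were therefore not seen in most reads of these genes.

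Main transcripts of Stmn2, Gap43 and Map1b had reads at more than 1 3′ end, and a second Map1b end held 20 reads. The ends of Stmn2 and Gap43 are described here, a feature noticed after the values had been seen. Reads on the main Stmn2 transcript (2073 nt in 5 exons, with a 3′ UTR of 1281 nt) stopped at 3 positions of the 3′ UTR, 165, 967 and 1281 nt after the stop codon, and those on the main Gap43 transcript (1420 nt in 3 exons, 3′ UTR of 587 nt) at 528 and 587 nt. The last 30 bases before each end are printed because they hold the polyadenylation hexamer, with AATAAA or ATTAAA in capitals (overlapping copies joined). They were read on the sense strand only from the GENCODE transcripts of GRCm38.

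Stmn2 first end (chr3:8560461-8560490, plus): gaatcaaaAATAAAATAAAaatcaatgcgg
Stmn2 middle end (chr3:8561263-8561292, plus): ctggttgctgcATTAAAaacacaaacaaaa
Stmn2 last end (chr3:8561577-8561606, plus): tgAATAAAgaattggagttctgtgaactaa
Gap43 first end (chr16:42248501-42248530, minus): taAATAAAgcaaatgtgccaattagcgtaa
Gap43 last end (chr16:42248442-42248471, minus): tgaatattAATAAAtcatgagagtaatcaa

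Among 12194 transcripts whose main 3′ end was searched in the same way over 50 nt, 70.7% held AATAAA, 19.6% ATTAAA and 86.2% either of them, so that a hexamer at these ends is the common case. A match is a description of the letters and not a measured site.

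The first Stmn2 end took most reads on every day. It held 70.6%, 64.0% and 67.1% of reads in the D0 libraries, 60%, 91.3% and 73.3% at D2 (on 5 to 23 reads each), 83.3%, 66.9% and 71.3% at D4, and 65.8%, 63.9% and 59.3% at D6. The middle end, the one with ATTAAA, held 2.38%, 0.581% and 4.43% at D0 and 7.77%, 6.41% and 8.54% at D6, with no overlap (5.11 points higher, exact permutation p = 0.1, the smallest possible). At D2 it had 0 of 43 reads, which allows a share of up to 6.98%. The last end held 30.3% ± 4.53 (SD, n = 3) at D0 and 29.4% ± 2.86 at D6.

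As CPM, which are relative to the library, all 3 Stmn2 ends had higher means at D6. The first end went from a mean of 200 CPM at D0 to 417 at D6, the middle end from 7.47 to 50 and the last end from 90.1 to 195. Across all transcripts tested, the share of the main 3′ end differed from D0 by the same call in 0.397% at D2, in 0.437% at D4 and in 1.26% at D6, and in 0 members on any of these days (at an unadjusted p under 0.05, 1 of 2 members and 7.8% of transcripts at D2, 0 of 5 and 10.4% at D4, and 1 of 5 and 12.7% at D6). For Stmn2 at D6 this test gave -4.31 points (limma, adjusted p = 0.522).

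The first Gap43 end held 14.3%, 18.2% and 36.0% of reads at D0, 39.1%, 37.1% and 50% at D2, 30.2%, 44.7% and 37.9% at D4, and 23.8%, 30.4% and 25.7% at D6. Every D2 library lay above every D0 library (19.3 points, exact permutation p = 0.1), although the D0 libraries held only 4, 6 and 9 such reads. D0 and D6 overlapped (exact permutation p = 0.6). The fit over all transcripts did not call the Gap43 ends at D2 (adjusted p = 0.528).

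**Figure D3:**
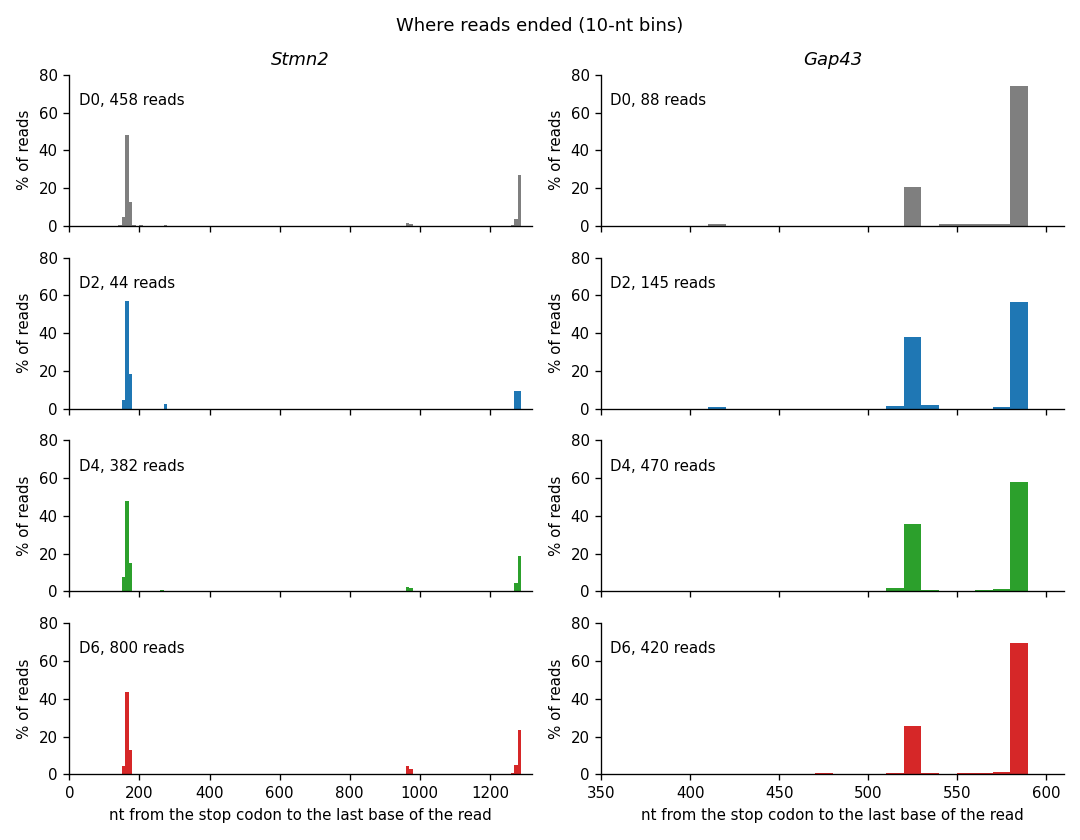
Share of reads (percent, vertical axis) that end at a given distance after the stop codon (nt, horizontal axis, 10-nt bins) for Stmn2 and Gap43 on each of the 4 days, with the 3 libraries of a day added together. Stmn2 reads gather at 165, 967 and 1281 nt and Gap43 reads at 528 and 587 nt.

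Poly(A) tails were compared as the median tail length of a gene's reads in a library, for genes with at least 10 reads in each library of both days. The median over all reads of a library was 99.9 nt at D0 (mean of 3 libraries) and 93.0 nt at D6. Counted once per gene, the median change was -4.05 nt at D2, -1.15 nt at D4 and 3.59 nt at D6 against D0, and 4.00 nt at D6 against D4, so that at D6 reads pooled over genes and the typical gene moved in opposite directions. No member had a called change of its median tail in any comparison, where 4.67% of 1822 genes were called at D2, 3.81% of 3387 genes at D4 and 5.51% of 3542 genes at D6 against D0, and 0.061% of 3277 genes at D6 against D4. At an unadjusted p under 0.05, limma called 14.4% of genes at D2, 11.8% at D4, 16.2% at D6 and 8.39% at D6 against D4. Among the members this held for 1 of 2 tested at D2 (Gap43), 3 of 5 at D4 (Gap43, Stmn1 and Stmn2), 1 of 5 at D6 (Stmn2) and 1 of 7 at D6 against D4 (Map1b).

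Stmn2 tails had medians of 102, 107 and 106 nt at D0, 84.7, 98.0 and 92.9 nt at D4, and 102, 94.1 and 93.8 nt at D6. The difference at D6 against D0 was -9.21 ± 4.48 nt (SE, limma, adjusted p = 0.302), and every D4 and D6 library lay below every D0 library, although D6 replicate 1 (101.5 nt) was close to D0 replicate 1 (101.7 nt). Gap43 tails had medians of 105, 118 and 134 nt at D0, 77.5, 95.5 and 84.9 nt at D2, 91.9, 97.9 and 93.8 nt at D4, and 108, 98.4 and 101 nt at D6. The D2 and D4 libraries were below every D0 library, and the differences were -29.8 ± 9.40 nt at D2 (adjusted p = 0.0895), -23.6 ± 8.21 nt at D4 (adjusted p = 0.165) and -17.1 ± 8.79 nt at D6 (adjusted p = 0.328). In the library with the longest Gap43 tails at D0, replicate 3, the median was taken over 27 reads, and without it the difference at D6 was -10.6 nt.

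Stmn1 tails, the most deeply sampled, had medians of 122, 125 and 129 nt at D0, 120.2, 118 and 120.2 nt at D2, 118, 115 and 121 nt at D4, and 124, 120.5 and 120 nt at D6. The difference at D6 was -4.59 ± 2.81 nt (adjusted p = 0.438) and -2.82 nt without D0 replicate 3, where the median change over genes was 3.59 nt. Map1b tails had medians of 113, 132 and 121 nt at D0 and of 154, 140 and 130.4 nt at D6, a difference of 17.7 ± 9.82 nt that was not called (adjusted p = 0.373). Stmn3 tails differed by 2.98 nt (adjusted p = 0.924).

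**Figure D4:**
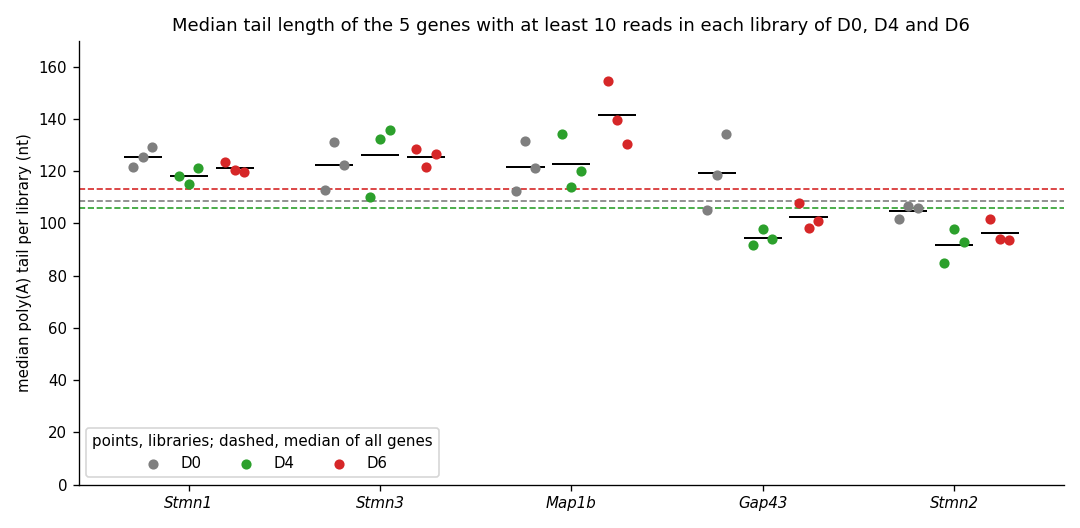
Median poly(A) tail length (nt, vertical axis) in each library at D0, D4 and D6 for Stmn1, Stmn3, Map1b, Gap43 and Stmn2; points are libraries, bars their mean, and each dashed line, in the colour of its day, is the median over all genes measured on that day. Stmn2 lies below Stmn1, Stmn3 and Map1b in each library shown.

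Between members, tails also differed within the same library. In the 9 libraries of D0, D4 and D6, Stmn1 tails were longer than Stmn2 tails by 23.9 ± 5.16 nt (SD over libraries) in 9 of 9 libraries. The same held for Stmn3 (26.9 ± 9.42 nt) and Map1b (30.9 ± 15.8 nt) against Stmn2, each in 9 of 9 libraries. An exact sign-flip permutation test over the 9 libraries gave p = 0.00391 for each of these pairs, the smallest it can give, and 0.00911 after adjustment over the 7 pairs compared. The difference of Stmn2 minus Gap43 was -7.71 nt, with Gap43 longer in 8 of 9 libraries (exact adjusted p = 0.0109), and Stmn1 tails were longer than Gap43 tails by 16.2 nt in 8 of 9 (exact adjusted p = 0.0109). Stmn1 and Stmn3 were not told apart (-3.02 nt, exact adjusted p = 0.375). Nor were Map1b and Stmn1 (7.04 nt, Map1b longer in 5 of 9, exact adjusted p = 0.191). These pairs were chosen after the medians had been seen, and libraries of a day share their runs.

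Among the 4139 genes measured at D6, whose median was 113 nt when each gene counted once, the members stood at both ends. Dcx tails were longer than those of 95.8% of genes, Mapt and Map1b tails of 90.8% each, Stmn4 tails of 89.6% and Map2 tails of 85.9%. Dpysl3 (75.9%), Stmn3 (74.9%) and Stmn1 (67.7%) lay nearer the middle, and Gap43 (26.9%) and Stmn2 (16.5%) were in the lower part. Among 5102 genes at D0, whose median was 108 nt, Stmn1 stood at 85.1%, Stmn3 at 80.4%, Map1b at 79.7%, Gap43 at 75.5% and Stmn2 at 39.3%.

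Tails were also sorted into those under 30 nt and those from 30 to 90 nt. The share under 30 nt was called different by limma for 0 members, against 0% of genes at D2, 0% at D4 and 0.903% at D6. At an unadjusted p under 0.05 it was 0 of 2 members at D2, 4 of 5 at D4 and 3 of 5 at D6, and 8.73%, 11.5% and 11.3% of genes. The difference at D6 was 3.24 points for Gap43 (adjusted p = 0.117), 2.70 for Stmn2 (adjusted p = 0.282), 0.64 for Stmn1, 0 for Stmn3 and -2.56 for Map1b (adjusted p = 0.376), so that the members did not share a direction. The share from 30 to 90 nt was called for 1 member at D2, 1 at D4 and 0 at D6, where 5.71%, 3.9% and 4.04% of genes were called. Gap43 had 36.7%, 35.3% and 22.2% of such tails at D0 and 56.5%, 45.9% and 57.7% at D2 (19.8 ± 6.64 points higher, adjusted p = 0.0498), a call lost when any single library was left out. Stmn1 had 22.4%, 20.6% and 22% at D0 and 27.0%, 30.3% and 27.8% at D4 (6.94 ± 2.19 points higher, adjusted p = 0.0443), lost in 5 of 6 such fits.

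Within a library, the Stmn2 molecules that ended at the last site were set against those that ended at the first. The median tail at the last end minus that at the first was -2.08, -6.92 and 3.50 nt in the D0 libraries, 39.2, 15.1 and 37.7 nt at D4, and 2.13, 16.0 and 35.9 nt at D6. It was above 0 in every D4 and D6 library and in 1 of 3 at D0. Over these 9 libraries the mean was 15.6 ± 18.0 nt (SD), above 0 in 7 of 9 (exact sign-flip permutation p = 0.0391), and the p was 0.0781 when any of 5 single libraries was left out. The 3 D2 libraries, with 2 to 4 reads at the last end, had 25.4, 25.4 and 32.8 nt. The difference between D6 and D0 was 19.8 nt (exact permutation p = 0.2).

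**Figure D5:**
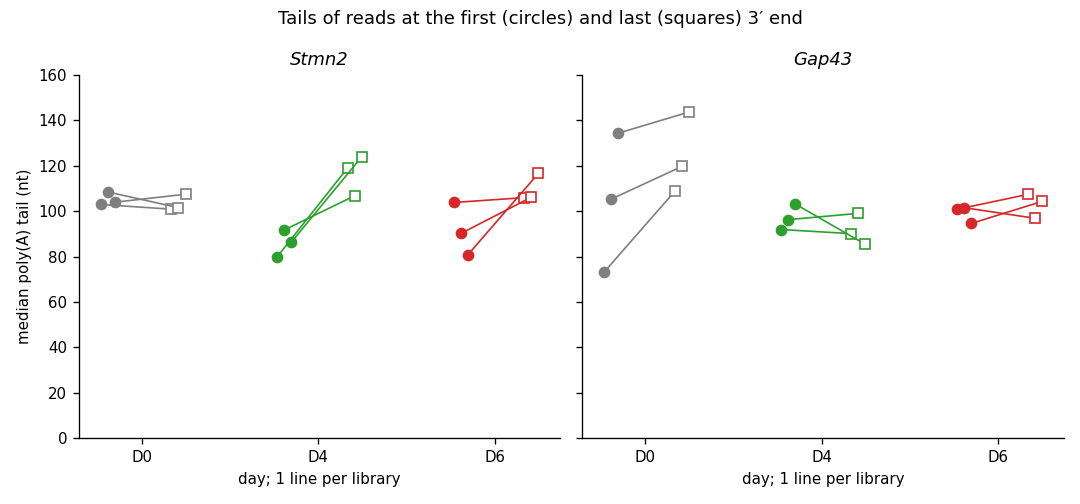
Median poly(A) tail length (nt, vertical axis) of reads at the first and at the last 3′ end of Stmn2 and Gap43, with a line joining both ends of the same library, by day. The Stmn2 differences run from -6.92 to 3.50 nt at D0, from 15.1 to 39.2 nt at D4 and from 2.13 to 35.9 nt at D6, so that D0 and D6 overlap.

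Other genes of the same pathway were counted in lists that did not include the members. Since some genes reached 30 reads only through the days on which they were high, counts at D6 against D0 are given for genes that reached it both by D0 and D2 alone and by D4 and D6 alone, and are read against the 16.4% of such genes that were higher and the 20.6% that were lower. These were 10 of 16 tested MAPs and CRMPs, of which 7 were higher and 1 lower (median log2 change 1.18). By the naming rule Dpysl4 (3.05) and Tppp3 (2.14) were higher and Jpt2 lower (-0.75), and the rule also names Map6, which passed the minimum only through D4 and D6, with 12 reads at D0 and 78 at D6. Of 6 such growth-cone membrane proteins related to GAP43, 5 were higher and 0 lower (median 1.06), with Basp1 (2.46), Marcksl1 (1.45) and Marcks (1.35) named. Nrgn, the seventh gene of that list, had too few reads for this count and was called lower (-1.44, adjusted p = 0.0363) on 25 reads at D0 and 8 at D6; it is named after its values were seen.

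Of 22 such kinesins and dynein components, 11 were higher at D6 and 0 lower (median log2 change 0.62), among them the kinesin light chain Klc1 (2.83), the neuronal kinesin Kif5c (2.49) and the dynactin subunit Dctn1 (1.21). Of 17 such plus-end, minus-end, severing and polymerase factors, 4 were higher and 3 lower (median 0.16). Mapre2 (1.54), Clasp1 (1.30) and the severing enzyme Spast (0.86) rose, and Tacc3 (-0.84) and the severing enzymes Katna1 (-0.83) and Fignl1 (-0.61) fell. Of 23 such kinases and phosphatases that act on these proteins, 4 were higher and 5 lower. Cdk5r2 (-1.09), which encodes an activator of CDK5, Pak1 (-1.10) and Mapk3 (-0.82) were lower, and Gsk3a (0.61) and Ppp2r1a (0.33) were higher. Cdk5r1, the p35 activator of CDK5, is also named by the rule but passed the minimum only through the late days, with 4 reads at D0 and 65 at D6. Over every gene tested, also those that passed only through the days on which they were high, 11 of 16 MAPs and CRMPs were higher and 1 lower, 5 of 7 growth-cone proteins and 1, 12 of 24 kinesins and dynein components and 0, 7 of 21 plus-end to polymerase factors and 3, and 6 of 25 kinases and phosphatases and 5. These last counts are a description and stand beside 19.1% of all 9355 genes tested that were higher and 18.6% that were lower.

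The genes whose levels ran most like a member's over the 12 libraries were named for the 7 members that averaged 20 reads or more in a library. The measure was Pearson's r of log2(CPM + 1) over 2818 genes, a description without a test in which all points share the 4 days and their runs. Stmn1 ran most like Cnn3 (r = 0.96), Stmn2 like 6330403K07Rik (0.98), Stmn3 like Ube2e3 (0.97) and Map1b like Calm2 (0.95). Map2 ran like Nrep (0.99) and the tubulin gene Tubb2b (0.98), Dpysl3 like Wdr6 (0.96), and Gap43 like Hoxb6 (0.98), Hoxb3 (0.98) and Hoxa5 (0.98). The CRMP gene Crmp1 was among the 3 nearest genes of both Stmn2 (0.97) and Map1b (0.94). Among all the members themselves, r ran from -0.11 between Stmn1 and Gap43 to 0.98 between Stmn4 and Dcx. The last value rests in part on the 0 reads that both genes had at D0 and D2.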

How the data were processed

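Native poly(A) RNA of P19 cells was measured at D0, D2, D4 and D6, with 3 libraries per day. The authors used Guppy for base calling, minimap2 (2.20 in the submitters' processing notes) for alignment to mouse transcripts on the mm10 build, Nanopolish for tails and Deeplexicon for barcodes. Their deposited table has 1 line per alignment, with the tail length in nt, mapping quality as a score and the deposited barcode confidence as a fraction. A second deposited table holds the authors' log2 fold changes and adjusted p-values, and was not used.

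Of 6306434 lines, 69 were malformed and 289260 had no barcode. PASS lines made up 77.7% of the assigned ones, and 4625696 of them were of class mRNA. Lines that repeat a read (8216) were left in. Samples were grouped by their titles.

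Reads were tallied per gene and library. The plan kept a count model for a file with a column of counts, which this file lacks. By that plan limma-voom (limma 3.58.1, R 4.3.3) was fitted to the tallies of all 12 libraries. It used trimmed-mean scaling (30% of ratios and 5% of levels trimmed) and 0.5 reads added. Median tails, tail classes and 3′ end shares were fitted with limma, weighted by reads, on the 6 libraries of both days. Benjamini-Hochberg adjustment ran over all features tested. Reads within 25 nt of a 3′ end were assigned to it. Exact tests ran over libraries and were two-sided. Fits were tested on data simulated for D6 against D0, with a spread set for the simulation. The abundance fit called 28% of genes with a true log2 change of 1 and 78% of those with 2. The tail fit called 15.5% of changes of 20 nt, and the 3′ end fit 39.5% of changes of 15 points. Tail and 3′ end changes of these sizes could therefore be missed. Positions came from GENCODE vM21, where all 27 member transcripts had the deposited coordinates.

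Named genes were the members, the 3 called genes with the largest change per list and direction among those averaging 20 reads or more in the D0 or in the D6 libraries, and the genes nearest each member, of which not all are printed. The members, lists and tests were chosen with earlier results of these data known. Alternatives covered scaling, filters, mapping quality, barcode confidence, depth, tail limits, weights, the replicate block and each library left out. Replicates of a day differed by more than counting noise. Python 3.11.15 was used with pandas 2.3.3, numpy 2.4.6, scipy 1.17.1 and, for plots, matplotlib 3.10.9.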

Additional observations from a re-analysis of the deposited data

How the results depend on the processing

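Counts of members called higher or lower in this section are over all members tested. They include the 4 that passed the read minimum only through D4 and D6, and are a description. Those called higher at D6 against D0 stayed within 1.5 times the value given for all members under every alternative fitted. Replicate numbers were not taken to pair the libraries, since the labels name nothing shared by a number and the correlation of deviations ran from -0.130 to 0.180 over the 18 same-numbered pairs. That 11 of 12 libraries were nearer to their own number is a hint from the data that the numbers may carry something shared. With the number as a replicate block the counts were again 2 higher and 2 lower at D2, 8 higher at D4, 9 at D6, 8 at D4 against D2 and 7 at D6 against D4. The replicate block called Stmn1 higher at D6 than at D4 (log2 0.28, adjusted p = 0.0375), as did 8 of the other 12 alternatives with all libraries, and it lost Stmn4 there (1.08, adjusted p = 0.0803) and again called 0 median tails. Members called higher at D2 fell to 1 with a mapping quality of at least 10, with a barcode confidence of at least 0.9 and with every library thinned to 130162 reads, Dpysl3 being lost each time. With the mapping quality minimum, 1 member (Stmn1) was called lower at D4. Thinning left 5 members higher at D4 (without Map1b, Mapt and Dpysl3), 4 at D4 against D2 and 4 at D6 against D4, and there Stmn4 and Dcx at D2 gave -0.077 each, both with no read on either day, and Gap43 at D6 against D4 gave 0.032. Fewer reads are the construction of the thinning. Limma-trend left 5 members higher at D6 against D4, without Stmn4 and Dcx. The cause of the changes other than those with thinning was not tested.

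With 1 library left out at a time, members called higher were 1 to 2 at D2, 7 to 8 at D4, 9 at D6, 6 to 8 at D4 against D2 and 6 to 7 at D6 against D4, and 2 were lower at D2 each time. Changes in sign were confined to differences that were not called. They were the log2 change of Stmn3 at D2 (-1.01 to 0.17), its median tail at D6 (-1.20 to 7.32 nt), its share of tails from 30 to 90 nt at D4 (-7.08 to 1.13 points) and at D6 (-3.51 to 4.71), that of Map1b at D4 (-4.67 to 4.43) and the share under 30 nt of Stmn1 at D2 (-0.33 to 0.94). The same held for shares of 3′ ends against D0, namely the first Stmn2 end at D2 (-0.56 to 15.1 points), the last at D2 (-12.6 to 3.02) and D6 (-2.55 to 1.69), and the first (-0.44 to 10.4) and last (-10.4 to 0.44) Gap43 end at D6, and for the main transcript's share at D6 in Stmn2 (-0.12 to 0.18) and Gap43 (-0.68 to 1.57). The tail difference between the last and first end ran from 12.7 to 18.4 nt for Stmn2 and from 2.29 to 8.96 nt for Gap43, and Stmn1 minus Stmn2 from 22.7 to 24.8 nt.

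Calls on tails from 30 to 90 nt depended on the settings. At D2 there were 0 with limits of 25 and 85 nt, with limits of 35 and 95 nt, without weights and with any library left out. At D4 there were 0 with limits of 35 and 95 nt and without weights, and 0 to 1 with a library left out. At D6 there was 1 with limits of 25 and 85 nt and 0 to 1 with a library left out. Uncalled differences that changed sign were, with limits of 25 and 85 nt, Stmn1 at D2 for the lower class (-0.24 points) and Stmn3 at D6 (2.17), and, with limits of 35 and 95 nt, Map1b (2.91) and Stmn3 (2.38) at D4 and Stmn3 (3.61) at D6. Depth limits Stmn4, Mapt and Dcx before D4 and tails and 3′ ends at D2.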

Other observations

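On Map1b, which encodes a large MAP of growing axons, 20 reads stopped 229 nt after the stop codon of the main transcript, far ahead of its last end. They were 3, 1 and 3 reads at D0, 1, 2 and 1 at D2, 2, 1 and 4 at D4, and 1, 0 and 1 at D6, while reads at the last end went from 19, 31 and 34 at D0 to 38, 85 and 49 at D6. The 50 nt before that early end held neither AATAAA nor ATTAAA. Neither hexamer was found before the main end of Stmn4.

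For Gap43, the tail of reads at the last end minus that at the first end averaged 5.98 ± 14.7 nt (SD) over the 9 libraries of D0, D4 and D6, above 0 in 6 of 9 (exact sign-flip permutation p = 0.273), and 9.24 nt over all 12 libraries (exact p = 0.0547). The value over the 9 libraries moved to 8.96 nt without D4 replicate 3 (exact sign-flip p = 0.0469) and to 2.29 nt without D0 replicate 1 (exact sign-flip p = 0.547). Reads at the last Gap43 end had median tails of 124 nt at D0, 96.7 nt at D2, 91.5 nt at D4 and 103 nt at D6 (means of 3 libraries). The D4 and D6 libraries lay below the D0 libraries in each case (exact permutation p = 0.1 each, the smallest possible).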
